A study of Homo sapiens with 6 samples.

Results

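The UGT2B genes encode UDP-glucuronosyltransferases, and the 7 examined here were *UGT2B4*, *UGT2B7*, *UGT2B10*, *UGT2B11*, *UGT2B15*, *UGT2B17* and *UGT2B28*. They were found by their NCBI Gene numbers among the 29806 genes of the count table, and all 7 were present. RNA-seq compared LNCaP parental cells with PACT KO cells of the same line, in 3 dishes each. LNCaP is an androgen-responsive human prostate cancer cell line, and *PRKRA* is the gene of PACT, which binds RNA duplexes. The PACT KO cells had received a plasmid carrying Cas9 and a guide against *PRKRA* and were grown from 1 clone, whereas the LNCaP parental cells are the line it came from, so an effect of the knockout and a property of that clone cannot be told apart. Both groups were plated at 1000000 cells per dish in RPMI-1640 medium with 10% FBS and collected 48 h later at about 80% confluency, with no androgen or other agent named for either. The replicates are dishes, so p-values measure the spread between dishes of 1 line and 1 clone.

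UGT2B enzymes lie in the membrane of the endoplasmic reticulum and join glucuronic acid, taken from UDP-glucuronic acid, to steroids, bile acids and drugs. The product is soluble in water and is carried out of the cell. In prostate cells this is an end point of androgen metabolism, because dihydrotestosterone (DHT) and its metabolites are no longer active once the sugar is joined to them. UGT2B15 and UGT2B17 are the enzymes best known for this in the prostate, and their genes are known to be repressed by androgen in LNCaP cells.

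The library labels were checked on *PRKRA* (gene number 8575), which had 882, 809 and 866 reads in the parental libraries and 291, 331 and 243 in the PACT KO libraries. It was lower in PACT KO by a log2 fold change of -1.57 (SE 0.07, edgeR FDR 8.83e-21), and every PACT KO library lay below every parental library. Between 19930060 and 24940838 reads were counted on genes per library. All 10 markers of luminal prostate epithelium passed the filter on low counts, and 1 of them was called lower, *KLK3*. Their summed level was 5146.2 to 5180.9 CPM (counts scaled to a library of 1000000 reads) in parental and 5319.4 to 5412.3 CPM in PACT KO libraries. Markers of hepatocytes, the cells best known for UGT2B expression, summed to 2.99 to 4.67 CPM and 5.91 to 6.5 CPM, with 2 of the 8 called higher (*ALB* and *CYP2E1*) and *APOA2* and *FGB* at no more than 3 reads in any library. The 4 basal epithelial markers summed to at most 0.185 CPM, with *KRT5* and *KRT15* at 0. The 5 leukocyte markers summed to 2.08 to 2.38 and 1.58 to 1.73 CPM, mostly from *CD68* (means 2.12 and 1.58 CPM, not called). *PTPRC*, *CD3E* and *CD14* were at no more than 3 reads. The 5 fibroblast markers summed to 32.9 to 37.5 and 44.6 to 50.1 CPM, mostly from *COL1A1* with *COL1A2* at 0, and the 3 endothelial markers to 24.3 to 27 and 15.6 to 17.7 CPM, all from *VWF*, which was called lower, with *PECAM1* and *CDH5* at 0. These sums moved between the groups, and their part in the UGT2B values was not tested.

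The 7 genes are copies of each other that lie within 989 kb of chromosome 4 (RefSeq, GRCh38.p14; the deposited counts were made on hg38, the same coordinate system). How alike they are bears on every value, because a read that matches more than 1 copy cannot be given to either. *UGT2B15* and *UGT2B17* were identical at 96.5% of aligned coding positions, with 55 of 1593 differing. *UGT2B11* and *UGT2B28* were identical at 97%, with 47 of 1590 differing. The stretches below, from GENCODE 29 transcripts, show what separates the members of each pair, with the differing bases in capitals. The first pair covers coding bases 262 to 301, where 8 of 40 bases differed, and the second pair coding bases 54 to 93, where 4 of 40 differed.
UGT2B15: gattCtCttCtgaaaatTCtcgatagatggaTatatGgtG
UGT2B17: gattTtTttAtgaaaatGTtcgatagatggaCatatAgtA
UGT2B11: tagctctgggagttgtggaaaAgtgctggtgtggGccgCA
UGT2B28: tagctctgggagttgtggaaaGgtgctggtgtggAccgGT

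The share of each transcript that a read could not tell from another UGT2 gene was lowest in *UGT2B4*. Of its 50-base windows 3.12% were found unchanged in another UGT2 transcript, against 6.75% for *UGT2B7*, 27.5% for *UGT2B15*, 27.8% for *UGT2B17*, 31.7% for *UGT2B10*, 35.7% for *UGT2B28* and 40.9% for *UGT2B11*. With 100-base windows the shares fell to 0% for *UGT2B4* and *UGT2B7* and to 5.71% to 12.7% for the other 5. Besides the pairs above, *UGT2B10* was identical to *UGT2B11* at 95% and to *UGT2B28* at 94.2% of aligned coding positions. How reads with more than 1 match were counted is not given in the sources used here, so levels of the close copies are uncertain to that extent.

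Promoters of 4 members were found in the RefSeq table, each 250 bases before to 50 bases after the start. *UGT2B4*, *UGT2B17* and *UGT2B28* had no entry. For *UGT2B10* and *UGT2B15* the start used is the outer end of the gene as given below. For *UGT2B7* and *UGT2B11* it lies inside the gene, so their windows are not at the gene's listed end. The promoters are shown so that the start regions of 3 called members and of *UGT2B7*, which was not called, can be read side by side. Capitals mark matches to the motifs searched on both strands.
UGT2B15, chr4:68670603-68670902, minus strand: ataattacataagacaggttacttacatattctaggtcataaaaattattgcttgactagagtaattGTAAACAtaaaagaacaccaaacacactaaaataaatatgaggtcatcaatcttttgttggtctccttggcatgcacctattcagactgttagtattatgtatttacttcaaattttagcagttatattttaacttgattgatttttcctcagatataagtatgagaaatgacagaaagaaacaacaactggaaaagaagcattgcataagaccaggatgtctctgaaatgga
UGT2B10, chr4:68815744-68816043, plus strand: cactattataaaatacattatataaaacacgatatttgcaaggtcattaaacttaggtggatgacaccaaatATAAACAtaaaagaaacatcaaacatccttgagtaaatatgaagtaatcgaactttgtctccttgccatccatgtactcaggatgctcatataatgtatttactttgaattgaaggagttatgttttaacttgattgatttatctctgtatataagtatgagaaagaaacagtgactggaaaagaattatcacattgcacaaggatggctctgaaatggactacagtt
UGT2B11, chr4:69214699-69214998, minus strand: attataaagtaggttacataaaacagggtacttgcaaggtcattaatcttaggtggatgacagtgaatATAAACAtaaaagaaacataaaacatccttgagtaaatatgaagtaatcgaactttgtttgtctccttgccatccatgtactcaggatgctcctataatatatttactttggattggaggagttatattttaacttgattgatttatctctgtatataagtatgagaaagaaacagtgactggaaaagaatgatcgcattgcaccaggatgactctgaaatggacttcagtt
UGT2B7, chr4:69096224-69096523, plus strand: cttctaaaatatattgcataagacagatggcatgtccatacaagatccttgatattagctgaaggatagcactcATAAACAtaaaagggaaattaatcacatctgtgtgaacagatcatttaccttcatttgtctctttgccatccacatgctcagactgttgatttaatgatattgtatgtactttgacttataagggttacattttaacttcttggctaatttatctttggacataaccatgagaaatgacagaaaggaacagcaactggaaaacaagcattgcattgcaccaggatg

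The promoters of *UGT2B10* and *UGT2B11* were identical at 90.1% of aligned positions, that of *UGT2B15* matched them at 68.8% and 70.5%, and that of *UGT2B7* matched the other 3 at 62.3% to 63%. The forkhead motif TGTTTAC, read by FOXA proteins, was found in *UGT2B15* at -183 from the start. It lay opposite to the printed strand, so the printed letters are GTAAACA. Of the 35116 promoters of the table, 3.42% held it. At the like place, -182 to -176, and also opposite to the printed strand, the other 3 had the variant TGTTTAT. This variant ends in another letter and is held by 4.24% of promoters. The CDX site TTTATTG (4% of promoters) was in 0 of the 4. A match is a run of letters and does not show that a protein was bound.

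Of the 7 UGT2B genes, 5 were lower in PACT KO at an FDR under 0.01 and a fold change of at least 1.5, the thresholds used throughout for a call. They were *UGT2B10*, *UGT2B11*, *UGT2B15*, *UGT2B17* and *UGT2B28*. Called lower by the same rule were 2.65% of the 14462 genes tested, and called higher were 3.07%, with 0 of the 7 members among the latter. In either direction 5.72% were called. *UGT2B4* and *UGT2B7* were not called. The 5 called members are also those with the most 50-base windows shared with another UGT2 transcript, 27.5% to 40.9%. *UGT2B4* and *UGT2B7* had 3.12% and 6.75%. How far shared reads tie the 5 calls to each other was not tested. The median log2 fold change of the 7 was -0.86, beside 0.00 for all genes tested. By FDR under 0.01 alone the same 5 were lower, beside 18.8% of all genes, and 0 were higher (15.3% of all genes). In 4 of the 7 every PACT KO library lay below every parental library, beside 27.2% of all genes with such a fall and 52.2% with the groups apart in either direction. All 7 passed the filter on low counts. In bulk RNA, fewer expressing cells and less RNA per cell cannot be told apart.

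**Figure D1:**
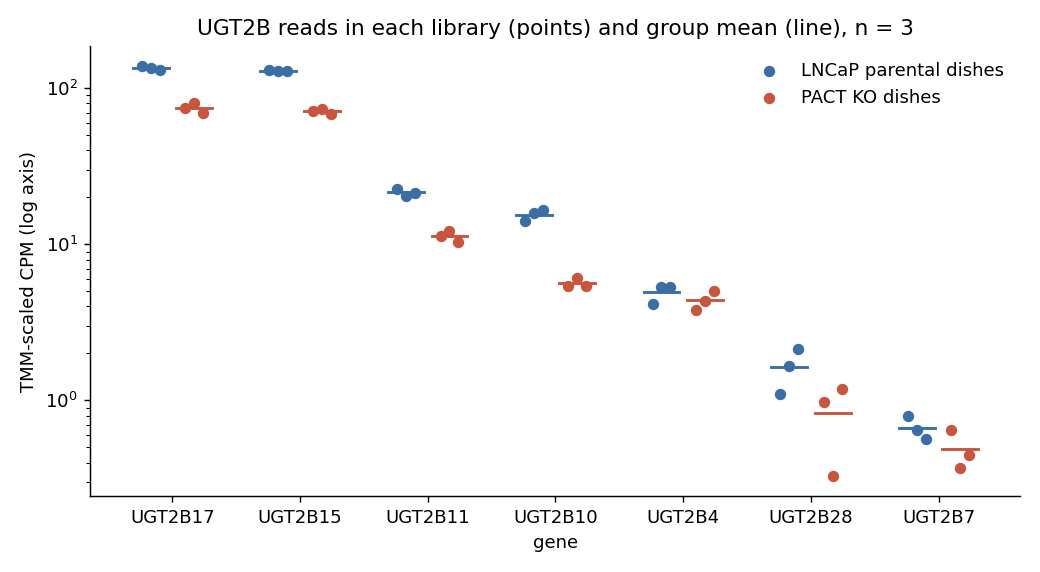
Level of each UGT2B gene in each library, in CPM on a log10 axis, with 3 LNCaP parental dishes and 3 PACT KO dishes and a bar at each group's mean. The groups are apart for *UGT2B10*, *UGT2B11*, *UGT2B15* and *UGT2B17* and overlap for *UGT2B4*, *UGT2B7* and *UGT2B28*.

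*UGT2B15* and *UGT2B17* are the main enzymes that glucuronidate DHT and androstanediol, and *UGT2B17* also takes androsterone and testosterone. *UGT2B15* (gene number 7366, chr4:68646597-68670652, minus strand) stood at 130.5, 128.8 and 129.4 CPM in the parental libraries and at 71.2, 74.1 and 68.7 CPM in the PACT KO libraries, from 2963, 2784 and 3204 reads and 1758, 1802 and 1389 reads. The parental values were nearly alike, and every PACT KO value was far below them. The level fell from 129.5 ± 0.88 to 71.3 ± 2.7 CPM (SD, n = 3 each). The log2 fold change was -0.86 (SE 0.03, 95% interval -0.93 to -0.79, edgeR FDR 2.52e-22), or 44.9% lower.

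*UGT2B17* (gene number 7367, chr4:68537173-68576322, minus strand) followed closely. It had 138.2, 134.8 and 131.4 CPM in parental libraries and 74.5, 80.8 and 70 CPM in PACT KO libraries. Again no value of one group reached the other. From 134.8 ± 3.43 to 75.1 ± 5.43 CPM (SD, n = 3 each), its log2 fold change was -0.84 (SE 0.04, 95% interval -0.92 to -0.76, edgeR FDR 1.28e-20), or 44.2% lower. The ratio of the *UGT2B15* to the *UGT2B17* level, taken within each library, had a mean log2 of -0.06 ± 0.03 (SD) in parental and -0.07 ± 0.05 in PACT KO libraries. Its change was -0.02, with a 95% interval of -0.11 to 0.08 (exact permutation p = 0.70), and no difference in response between the pair was detected. How reads shared by the pair were counted could move this ratio, and that was not tested. The reads on the pair together came to 264.4 ± 4.05 and 146.4 ± 8.13 CPM (SD), 44.6% lower. This sum does not depend on how a shared read was split within the pair. It would still depend on whether shared reads were dropped or counted for both genes, which is not known.

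*UGT2B10* encodes an enzyme known for joining glucuronic acid to nitrogen, as in nicotine and cotinine, and it had the lowest fitted log2 fold change of the 7. *UGT2B10* (gene number 7365, chr4:68815994-68832023, plus strand) had 321, 342 and 410 reads in the parental libraries and 134, 148 and 110 in the PACT KO libraries. In CPM these were 14.1, 15.8 and 16.6 against 5.42, 6.09 and 5.44. The lowest parental value was well above the highest PACT KO value. The mean went from 15.5 ± 1.24 to 5.65 ± 0.377 CPM (SD, n = 3 each), with a log2 fold change of -1.45 (SE 0.10, 95% interval -1.65 to -1.26, edgeR FDR 2.34e-15), or 63.5% lower. The wide interval of *UGT2B28* holds this value.

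*UGT2B11*, whose enzyme has few known substrates, was also lower in PACT KO. *UGT2B11* (gene number 10720, chr4:69199951-69224984, minus strand) had 22.8, 20.5 and 21.5 CPM in parental and 11.3, 12.1 and 10.4 CPM in PACT KO libraries. The groups did not overlap. The mean fell from 21.6 ± 1.12 to 11.3 ± 0.826 CPM (SD, n = 3 each), and the log2 fold change was -0.94 (SE 0.08, 95% interval -1.10 to -0.77, edgeR FDR 2.58e-12).

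*UGT2B28*, whose enzyme also accepts androgens, was called lower on few reads. *UGT2B28* (gene number 54490, chr4:69280475-69295050, plus strand) had 25, 36 and 53 reads in the parental libraries and 24, 8 and 24 in the PACT KO libraries, or 1.1, 1.66 and 2.14 CPM against 0.971, 0.329 and 1.19 CPM. The highest PACT KO library was above the lowest parental library, so the groups overlapped. The log2 fold change was -1.02 (SE 0.29, 95% interval -1.61 to -0.42, edgeR FDR 0.00444). The call was lost without parental replicate 2 (-1.01, edgeR FDR 0.0183), without parental replicate 3 (-0.76, edgeR FDR 0.0781), without PACT KO replicate 2 (-0.62, edgeR FDR 0.0576) and in DESeq2 (-1.0, adjusted p 0.0292). Its coding sequence is the closest to that of *UGT2B11*, which had many more reads.

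*UGT2B4*, known for the glucuronidation of bile acids, was not called. *UGT2B4* (gene number 7363, chr4:69480165-69526014, minus strand) had 4.14, 5.32 and 5.37 CPM in parental and 3.8, 4.32 and 5 CPM in PACT KO libraries, from 94, 115 and 133 reads and 94, 105 and 101 reads. The PACT KO values ran into the parental range. The log2 fold change was -0.19 (SE 0.13, edgeR FDR 0.246), with a 95% interval of -0.45 to 0.07 that does not meet the intervals of *UGT2B10*, *UGT2B11*, *UGT2B15* and *UGT2B17* but overlaps that of *UGT2B28*.

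*UGT2B7*, the enzyme of morphine and of many acidic drugs, was barely detected. *UGT2B7* (gene number 7364, chr4:69051375-69112987, plus strand) had 18, 14 and 14 reads in the parental libraries and 16, 9 and 9 in the PACT KO libraries. A count of 3 equals 0.12 to 0.151 CPM in these libraries by library totals alone. The levels of *UGT2B7* were 0.565 to 0.793 CPM in parental and 0.37 to 0.648 CPM in PACT KO libraries, overlapping. The log2 fold change was -0.44 (SE 0.37, edgeR FDR 0.359). Its 95% interval of -1.19 to 0.32 contains both no change and the fall of *UGT2B15*, so a difference of that size was not detectable at this depth.

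**Figure D2:**
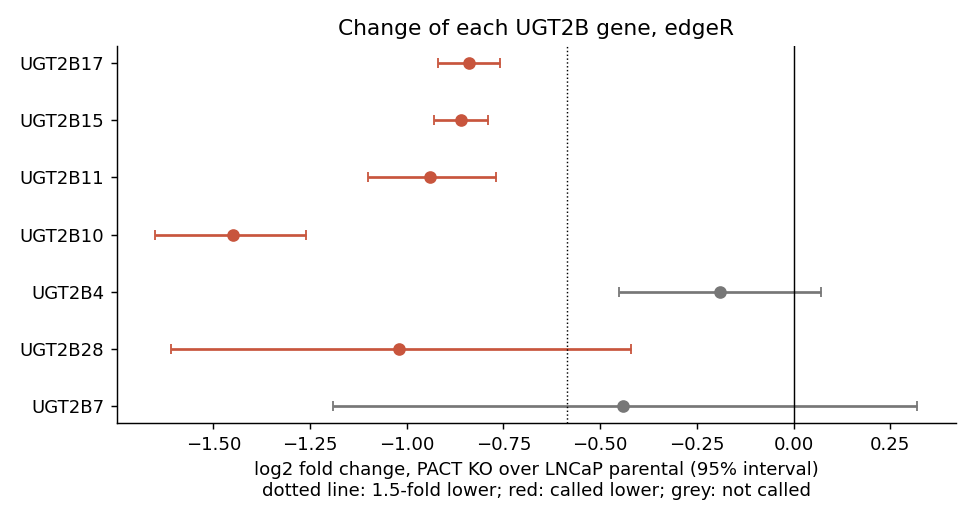
Log2 fold change of each UGT2B gene, PACT KO over LNCaP parental, with 95% intervals from edgeR's quasi-likelihood fit of 3 dishes against 3. *UGT2B10* is lowest at -1.45, *UGT2B15* and *UGT2B17* have the narrowest intervals at -0.86 and -0.84, and the intervals of *UGT2B4* and *UGT2B7* cross 0.

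Levels can be compared between genes only per length of transcript. The full length was used, with no allowance for stretches shared with other copies, which differ in extent between the members. The order of close copies is uncertain to that extent. On the scale of CPM per kb, the order in parental cells was *UGT2B17* (64.9 ± 1.65), *UGT2B15* (62.4 ± 0.424), *UGT2B11* (10.3 ± 0.536), *UGT2B10* (8.03 ± 0.642), *UGT2B4* (2.35 ± 0.331), *UGT2B28* (0.892 ± 0.284) and *UGT2B7* (0.354 ± 0.061), each as mean ± SD of 3. The order was the same in PACT KO cells, at 36.2 ± 2.61, 34.3 ± 1.3, 5.39 ± 0.396, 2.93 ± 0.195, 2.08 ± 0.284, 0.452 ± 0.244 and 0.258 ± 0.0761. In PACT KO cells the libraries of *UGT2B28* overlapped those of *UGT2B7*, so these neighbours in the order did not differ beyond their spread. Those of *UGT2B17* and *UGT2B15* overlapped in PACT KO cells too, but within each library *UGT2B17* was the higher of the pair, in 6 of 6 libraries, with log2 ratios of *UGT2B15* to *UGT2B17* of -0.12 to -0.02.

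All 7 genes together had 308.7 ± 2.59 CPM in parental and 169.0 ± 8.51 CPM in PACT KO cells (SD, n = 3 each), from 7077, 6650 and 7601 reads and 4144, 4331 and 3259 reads. This total was 45.3% lower. *UGT2B15* and *UGT2B17* supplied 85.6% ± 0.633 of the UGT2B reads in parental cells and 86.6% ± 0.504 in PACT KO cells (SD), so the total followed that pair.

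The make-up of the UGT2B reads was compared within libraries, where scaling between libraries plays no part. The share held by *UGT2B10* was 4.54%, 5.14% and 5.39% in parental libraries and 3.23%, 3.42% and 3.38% in PACT KO libraries. That of *UGT2B4* was 1.33%, 1.73% and 1.75% against 2.27%, 2.42% and 3.1%. For both genes the groups were apart, *UGT2B10* lower and *UGT2B4* higher in PACT KO, each with an exact permutation p of 0.10 (2-sided, adjusted p 0.35 over the 7 members). With 3 libraries against 3, 0.10 is the smallest p this test can give, so no share could pass 0.05. The shares of *UGT2B7*, *UGT2B11*, *UGT2B15*, *UGT2B17* and *UGT2B28* overlapped between the groups.

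Log2 ratios within a library were formed for the 21 pairs of members, and the groups were apart in 10 of them and overlapped in 11. For single genes, the groups were apart in either direction in 52.2% of those tested. The share for ratios of other gene pairs was not computed. The pairs share members, so they are not separate results. All pairs that were apart held *UGT2B4* or *UGT2B10*, except *UGT2B11* with *UGT2B17*. Each of the 10 had an exact permutation p of 0.10, the smallest possible, and an adjusted p of 0.21 over the pairs. *UGT2B10* fell relative to *UGT2B15* by -0.59 (95% interval -0.81 to -0.37), to *UGT2B17* by -0.61 (-0.87 to -0.35) and to *UGT2B11* by -0.51 (-0.81 to -0.21), on the log2 scale, whereas against *UGT2B28* the change was -0.33 (-2.17 to 1.51) and the groups overlapped. *UGT2B4* rose relative to *UGT2B15* by 0.69 (0.18 to 1.20) and to *UGT2B10* by 1.28 (0.89 to 1.67). These intervals use the pooled SD of the 6 libraries and leave out 0, except that of *UGT2B10* against *UGT2B28*. Among the pairs that were apart, *UGT2B4* against *UGT2B28* (-0.69 to 2.59) and *UGT2B11* against *UGT2B17* (-0.20 to 0.01) also had intervals that held 0. The permutation test cannot reach 0.05 here. *UGT2B11* against *UGT2B15* changed by -0.08 (-0.21 to 0.05), and the groups overlapped.

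**Figure D3:**
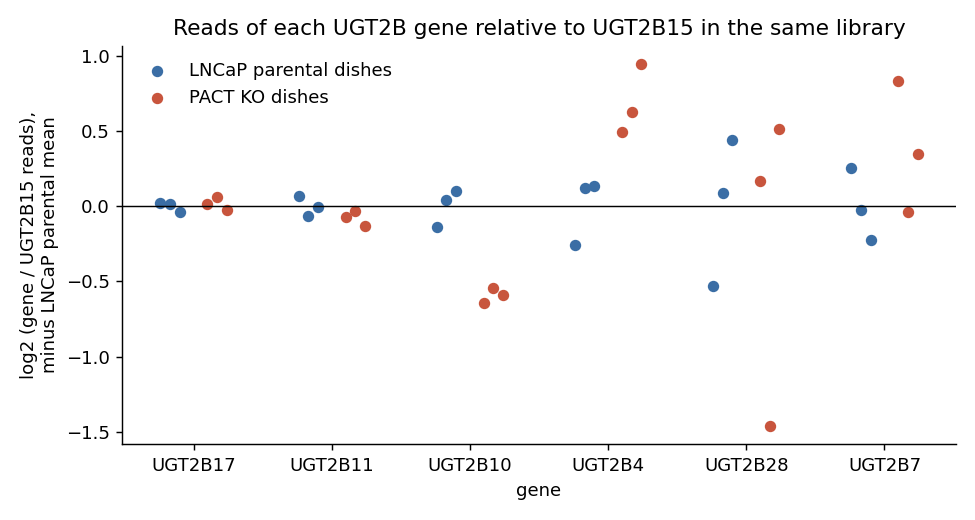
Log2 ratio of each UGT2B gene to *UGT2B15* within each library, less the mean of the LNCaP parental libraries, for 3 LNCaP parental and 3 PACT KO dishes. *UGT2B10* is lower in every PACT KO library, *UGT2B4* is higher, and *UGT2B17* keeps its ratio within the spread between dishes.

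From the low to the high end of the locus, the members lie in the order *UGT2B17*, *UGT2B15*, *UGT2B10*, *UGT2B7*, *UGT2B11*, *UGT2B28* and *UGT2B4*. The largest fall, *UGT2B10*, and the least certain, *UGT2B7*, are neighbours among the members, and *UGT2B4* lies at one end. The 3 other counted genes between the outermost members were at or near 0, as *LOC101927264* and *LOC101060162* had 0 reads in all 6 libraries and *UGT2A3* had 0 to 8. Of the counted neighbours outside them, 5 on each side, 2 had enough reads to be tested. *TMPRSS11E*, which encodes a serine protease of the cell surface and lies at chr4:68447463-68497604, the nearest counted gene before *UGT2B17*, had 57, 53 and 65 reads in parental and 24, 29 and 27 in PACT KO libraries. Its groups were apart, with a log2 fold change of -1.13 (SE 0.19, edgeR FDR 6.12e-06). *YTHDC1*, a reader of methylated adenosine in RNA and the next tested gene beyond it, had 93.0 ± 1.29 and 93.6 ± 1.74 CPM (SD) and a log2 fold change of 0.01 (SE 0.03, edgeR FDR 0.817).

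**Figure D4:**
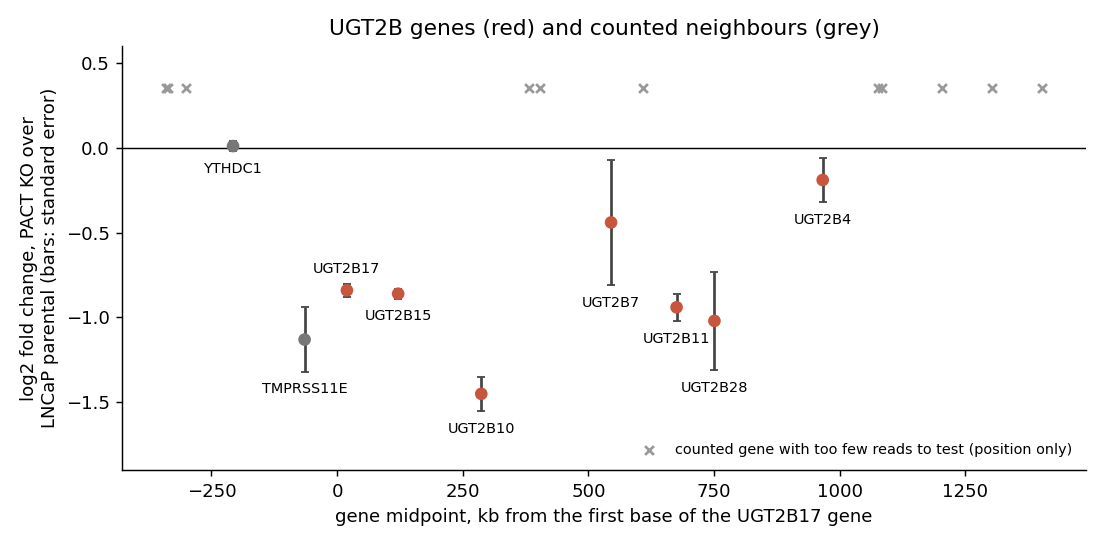
Log2 fold change with SE of the UGT2B genes (red) and their tested neighbours (grey) against the position of each gene's midpoint, in kb from the first base of *UGT2B17*. Crosses at the top mark counted genes with too few reads to test, and *YTHDC1* is at 0.01 while *TMPRSS11E* is at -1.13.

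The genes that supply, surround and clear the UGT2B reaction were read from 7 lists of 78 genes in all. Of these, 37 were tested, 1 was called lower and 2 were called higher, beside 2.65% and 3.07% of all genes. Among the other UDP-glucuronosyltransferases, 6 of 15 were counted. *UGT8*, which makes galactolipids and was named after its values were seen, was the 1 tested, with a log2 fold change of 0.33 (SE 0.11, edgeR FDR 0.0139, not called). *UGT2A1*, *UGT2A2*, *UGT3A1* and *UGT3A2* had at most 3 reads in any library, and the 9 UGT1A genes of the list are not analysed here.

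Of the 7 genes that make, carry or reverse the use of UDP-glucuronic acid, 6 were tested and 0 were called, with a median log2 fold change of -0.05. By FDR under 0.01 alone, whatever the fold, 2 of the 6 were lower and 1 was higher, beside 18.8% and 15.3% of all genes. *UGDH*, the enzyme that makes UDP-glucuronic acid, had 97.1 ± 1.3 and 86.5 ± 1.07 CPM (SD, n = 3 each), and its log2 fold change was -0.17 (SE 0.03, edgeR FDR 6.89e-05). *UGP2*, which makes its precursor UDP-glucose, had 41.9 ± 1.29 and 43.0 ± 0.901 CPM and 0.04 (SE 0.04, edgeR FDR 0.527). *GUSB*, the lysosomal glucuronidase that removes glucuronic acid, had 79.8 ± 2.24 and 68.1 ± 1.13 CPM and -0.23 (SE 0.04, edgeR FDR 1.76e-06).

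Of the 12 genes of androgen synthesis and activation, 5 were tested and 0 were called, with a median log2 fold change of -0.08. *SRD5A1*, a 5-alpha reductase that makes DHT, had 33.6 ± 1.67 and 28.4 ± 0.567 CPM (SD, n = 3 each) and a log2 fold change of -0.24 (SE 0.05, edgeR FDR 3.82e-04). *SRD5A3*, of the same family, had -0.08 (SE 0.04, edgeR FDR 0.103). *AKR1C3*, which makes testosterone from androstenedione, had 3.33 ± 0.285 and 3.58 ± 0.871 CPM and 0.12 (SE 0.15, edgeR FDR 0.556). *STAR*, *CYP17A1*, *HSD3B1* and *HSD3B2*, which act in steroid synthesis, and *SRD5A2*, the other prostate reductase, had at most 3 reads in any library. *CYP11A1*, which cuts the side chain of cholesterol and was named after its values were seen, had 10, 7 and 4 reads in parental and 1, 1 and 0 in PACT KO libraries, groups that were apart but with too few reads to be tested.

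Among the 15 genes that oxidize or reduce androgens ahead of conjugation, 8 were tested, 2 were called higher and 0 lower, with a median log2 fold change of 0.05. *CYP3A5*, a cytochrome that hydroxylates testosterone, had 61, 49 and 46 reads in parental and 105, 93 and 83 in PACT KO libraries, and its groups were apart. Its log2 fold change was 0.84 (SE 0.15, edgeR FDR 1.03e-05). *HSD17B14*, which oxidizes the hydroxyl group at carbon 17 of steroids, had 121, 98 and 114 reads against 175, 165 and 168, with groups apart and a log2 fold change of 0.61 (SE 0.11, edgeR FDR 2.59e-05). This lies just past the fold threshold, and the call was lost without parental replicate 2 (0.57), parental replicate 3 (0.58) or PACT KO replicate 3 (0.53). *HSD17B4* had 223.2 ± 6.17 and 239.7 ± 4.24 CPM (SD) and 0.10 (SE 0.03, edgeR FDR 0.00272), and *HSD17B11* had -0.05 (SE 0.10, edgeR FDR 0.73). Both belong to the same oxidizing family, and *HSD17B2*, its member best known for turning testosterone back to androstenedione, had 1 to 4 reads.

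Of the 6 genes of steroid sulfation, the other conjugation route, 3 were tested and 0 were called. *SULT2B1*, named after its values were seen, had 13.1 ± 0.687 and 8.76 ± 0.176 CPM (SD, n = 3 each) and a log2 fold change of -0.58 (SE 0.09, edgeR FDR 1.46e-06), a 1.49-fold difference just short of the threshold. Of the 5 exporters of conjugates, 3 were tested and 1 was called lower. *ABCG2*, a pump that carries sulfates, glucuronides and many drugs out of cells, had 43, 29 and 35 reads in parental and 13, 8 and 9 in PACT KO libraries. Its groups were apart, and the log2 fold change was -1.83 (SE 0.30, edgeR FDR 3.23e-06).

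Of the 18 nuclear receptors and other transcription factors known to act on UGT2B genes, 11 were tested and 0 were called, with a median log2 fold change of 0.01. By FDR under 0.01 alone, 3 of the 11 were lower and 2 were higher, beside 18.8% and 15.3% of all genes. *FOXA1*, a forkhead factor that opens chromatin for steroid receptors, had 480.2 ± 4.69 and 509.3 ± 8.12 CPM (SD, n = 3 each) and a log2 fold change of 0.09 (SE 0.03, edgeR FDR 0.00626). Named after their values were seen, *VDR*, the vitamin D receptor, had 34.6 ± 0.602 and 23.7 ± 0.696 CPM (SD) and -0.54 (SE 0.06, edgeR FDR 1.94e-10), and *CEBPA*, a factor of liver and fat cells, had 37.5 ± 0.319 and 29.9 ± 1.27 CPM and -0.32 (SE 0.05, edgeR FDR 1.58e-06). Both fell by less than the fold threshold. *HNF4A*, which drives genes of the liver, had 0 reads in all 6 libraries, and *CDX2*, *NR1I2*, *NR1I3* and *NR1H4* had at most 3 in any.

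**Figure D5:**
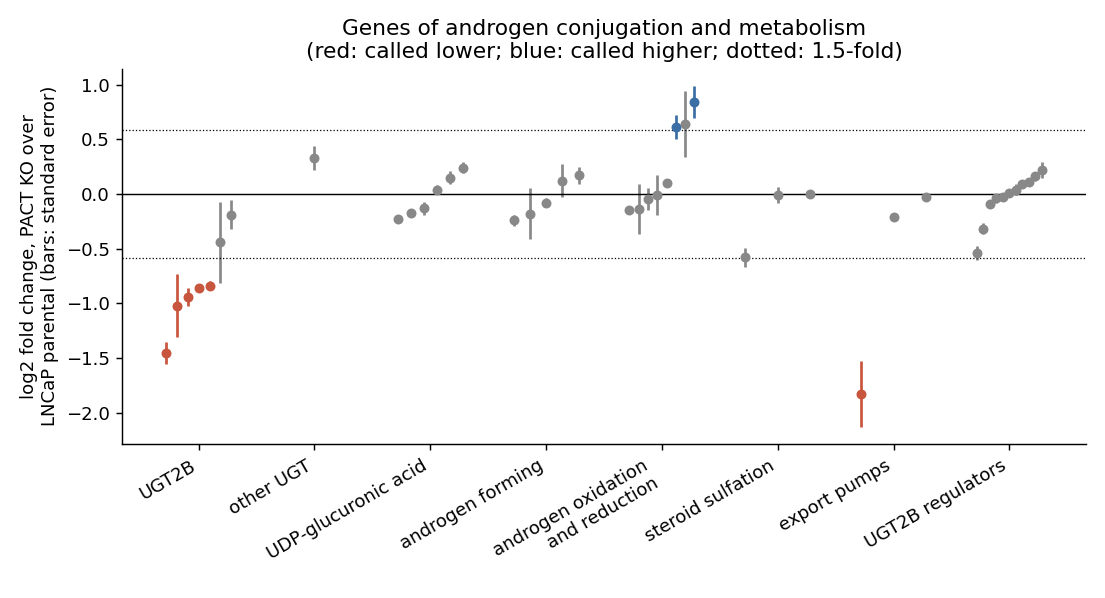
Log2 fold change, PACT KO over LNCaP parental, of the tested genes of the UGT2B set and of the 7 pathway lists, 1 point a gene with its SE, and dotted lines at the 1.5-fold threshold. Past the lines with FDR under 0.01 are 5 of the 7 UGT2B genes and 3 of the 37 pathway genes, of which *ABCG2* is lower and *CYP3A5* and *HSD17B14* are higher.

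Genes with the most similar pattern were sought among 13169 tested genes of at least 1 CPM, by the root mean square difference of log2 CPM over the 6 libraries after centring each gene. Closest to *UGT2B15* were *NFU1* (0.044), *APP* (0.045), *TMEM165* (0.051), *FADS1* (0.053) and *AADAT* (0.056), and *UGT2B17* itself was at 0.035. *APP*, the amyloid precursor protein gene on chromosome 21, had 383.2 ± 7.99 and 201.7 ± 2.62 CPM (SD, n = 3 each). *TMEM165* and *AADAT* are on chromosome 4 but outside the UGT2B locus. Closest to *UGT2B10* were *GULP1* (0.064), *CD163L1* (0.084), *CADPS2* (0.095), *SYT4* (0.096) and *LACC1* (0.103), on 5 different chromosomes, and *UGT2B10* was 0.300 from *UGT2B15*. *GULP1*, which encodes an adaptor for the uptake of dying cells, had 173.4 ± 6.86 and 65.1 ± 2.75 CPM (SD). This likeness is over 6 libraries in 2 groups, so it mostly ranks genes by the size of the difference between the groups.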

How the data were processed

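PolyA RNA of 3 LNCaP parental and 3 PACT KO dishes was sequenced, and the authors deposited whole-number read counts per NCBI Gene number, not normalized. The submitters' processing notes name bcl2fastq 2.20.0.422, STAR 2.5.3a, StringTie 1.3.3, featureCounts 1.5.3 and hg38. The annotation, the use of strand and the treatment of reads with several matches are not given in the sources used here. A row without a gene number (0.0688% to 0.0708% of counts) was left out. Symbols came from RefSeq for 27540 of 29806 genes (92.4%). Counts were filtered with filterByExpr, scaled by TMM (factors 0.985 to 1.02) and tested with edgeR 4.0.16 (glmQLFit, glmQLFTest, R 4.3.3), 2-sided, with Benjamini-Hochberg adjustment over all 14462 genes tested. CPM use the TMM factors. SE is the absolute log2 fold change over the square root of F. The fit was also run on simulated counts with more spread between libraries than these data, so its outcome there does not carry over to them. Shares and ratios within libraries were compared by exact permutation tests. Libraries had 19930060 to 24940838 reads on genes. A count of 3, the floor chosen here, equals 0.12 to 0.151 CPM by library totals without the TMM factors. This floor takes no account of the spread between dishes.

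Named are the 7 members, *PRKRA*, *FOXA1*, *UGDH*, *UGP2*, *SRD5A1*, *SRD5A3*, *AKR1C3*, *HSD17B2*, *HSD17B4*, *HSD17B11* and *GUSB*, at most 5 called genes in each direction from each pathway list, counted genes between the outermost members, and the 5 most similar genes to *UGT2B15* and to *UGT2B10*. A further gene named by the rule is not reported here. Other names were chosen after their values were seen. The members, the lists and the rule were chosen with earlier results of these data known. Alternatives were RLE, upper-quartile and library-total scaling, no filter, a filter of 1 CPM in 3 libraries, the likelihood ratio test, glmTreat at 1.5-fold, FDR alone, DESeq2 1.42.0, limma-voom 3.58.1, a replicate block, *UGT2B15* and *UGT2B17* summed, and each library left out in turn.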

Additional observations from a re-analysis of the deposited data

How the results depend on the processing

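*UGT2B10*, *UGT2B11*, *UGT2B15* and *UGT2B17* were called lower under every alternative run, with log2 fold changes of -1.52 to -1.40, -0.99 to -0.88, -0.89 to -0.83 and -0.90 to -0.79. *UGT2B28* was not called in DESeq2 (-1.0), in glmTreat (-1.02), or without 3 of the 6 libraries, and its log2 fold change ran from -1.32 to -0.62 over the libraries left out. So 5 members were called lower, or 4 in those settings. The number of pathway genes called lower was 1 to 2 over the libraries left out and 10 by FDR alone, and the number called higher was 1 to 2 and 6, with 0 in glmTreat. *TMPRSS11E* was not called in glmTreat, which left 0 neighbours called. The direction changed for *HSD17B11* without PACT KO replicate 3 (0.04, the other libraries left out giving down to -0.12), which was not called under any setting. The cause of these changes was not tested. Same-numbered libraries did not deviate together (correlations -0.0938, 0.00285 and -0.0862), and the other pairings ran from -0.0831 to 0.153. Whether same-numbered libraries were plated or prepared together was not tested. With the replicate number as a block 5 members were still called lower. The filter of 1 CPM in 3 libraries removed *UGT2B7*. Depth limits *UGT2B7* and *UGT2B28*, which had at most 53 reads in a library.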
